A study of Mus musculus with 72 samples.

Results

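Polysomal RNA of 6 mice given CX5461 and everolimus together was compared with polysomal RNA of 6 mice given CX5461 alone, which measures what everolimus adds to CX5461 on polysomes 2 h after dosing. These 12 libraries were chosen by treatment and fraction, and they are 12 of the 24 acute polysomal libraries and of the 72 libraries of the series. All mice were C57BL/6 animals carrying transplanted Eμ-Myc B-lymphoma cells, in which a Myc transgene active in B cells drives the tumour, from 1 clone marked with MSCV Gfp. On day 10 after transplantation the CX5461 group received 35 mg/kg CX-5461, the combination group 35 mg/kg CX-5461 with 5 mg/kg everolimus, and 6 further mice each received everolimus alone at 5 mg/kg or no drug (vehicle). Every mouse gave a library of cytoplasmic RNA (input) and a library of RNA from pooled sucrose gradient fractions with 4 or more ribosomes (polysomal), so the polysomal level of an mRNA reflects both its abundance and its ribosome loading. Because the cells came from 1 clone, the replicates are host animals and not independent tumours.

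CX-5461 blocks RNA polymerase I, the enzyme that transcribes the ribosomal RNA genes. Everolimus binds FKBP12 and inhibits mTORC1, the kinase complex that senses amino acids and growth factors. Active mTORC1 phosphorylates the 4E-BP proteins, which frees the cap-binding protein eIF4E, and it promotes translation of mRNAs that begin with a 5′ terminal oligopyrimidine (TOP) tract, a group that includes those of the ribosomal proteins. It also raises translation of ATF4, a transcription factor of amino acid transport, amino acid synthesis and tRNA charging.

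The 12 libraries held 14.9 to 20.9 M counts. Genes of B cell identity and receptor signalling together made up 4860 to 5520 counts per M (CPM) in the 12 libraries. T cell markers together made up 85 to 129 CPM, NK cell markers 5.64 to 10.1 CPM and myeloid markers 753 to 965 CPM over both groups, with 0 of 24, 0 of 9 and 2 of 19 tested members passing. Stromal and endothelial markers made up 1650 to 2610 CPM and erythroid and platelet markers 793 to 13000 CPM. In some libraries the erythroid and platelet sum thus exceeded that of the B cell list. Libraries differed in how their levels followed GC content and transcript length. The rank correlation of a library's deviation from the mean with GC content lay between -0.59 and -0.05 after CX5461 and between -0.14 and 0.55 after the combination (difference of means 0.47, exact permutation test, two-sided, p = 0.00433, adjusted over 5 library measures 0.0216). With transcript length it lay between -0.49 and 0.25 after CX5461 and between 0.01 and 0.56 after the combination (difference 0.46, same exact permutation test, p = 0.0216, adjusted 0.054). Total counts, the share of reads with no gene and the share of counts on Lars2 and Yam1 differed by less (adjusted p = 0.734, 0.734 and 0.4 by the same exact test). Counts of the lists are therefore also given with the trend on GC content and transcript length removed from every library.

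Of 15374 genes tested with edgeR's quasi-likelihood test, 3626 (23.6%) differed on polysomes at a Benjamini-Hochberg adjusted p below 0.05, 2016 higher (13.1%) and 1610 lower (10.5%) after the combination. The differences were small: the median of the genes called higher was 0.41 and of those called lower -0.31 on the log2 scale, and 147 genes changed by more than 2-fold. For 946 genes (6.15%), 550 higher (3.58%) and 396 lower (2.58%), the 6 combination libraries did not overlap the 6 CX5461 libraries. With the GC and length trend removed, 1951 of 14968 genes (13%) passed, 1104 higher (7.38%) and 847 lower (5.66%). The counts of each list below are to be read beside these shares of all genes. CX5461 mice 1, 4 and 5, whose correlation with transcript length was the lowest, were left out together in a fit chosen after seeing the data. No other set of 3 CX5461 mice was left out, so whether these mice weigh more than others was not tested. Without CX5461 mice 1, 4 and 5, which also leaves fewer samples, 53 genes passed. All 3626 genes kept their direction, with medians of 0.34 and -0.26. In that fit 3 ATF4 targets were lower, 1 gene each of the FoxO, autophagy and Myc lists was higher, and 1 gene each of the B cell and type I interferon lists was lower, while none of the other lists had a call. Of the genes named here, Trib3, Atf4, Fbxl20, Atg2a, Mxd3, Bahcc1, Ap1s2 and Slc25a24 passed in that fit. With the trend removed, 3393 of the 3550 genes still tested kept their direction, 1400 stayed called, and the medians were 0.23 and -0.17. This fit and the one without CX5461 mice 1, 4 and 5 reuse libraries on which the 3626 genes were called. A kept direction in them is therefore not independent support. With 1 mouse left out the count ranged from 2243 without CX5461 mouse 4 to 4133 without CX5461 mouse 3, and it was 2403 without combination mouse 4. Without CX5461 mouse 1, 5 or 6 it was 2927, 2774 or 2795.

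Some transcripts of the amino acid response controlled by ATF4 were lower on polysomes after the combination, 13 of the 43 tested. Trib3, a pseudokinase gene induced by ATF4 (chromosome 2, 152337422 to 152344032, minus strand, GRCm38), stood at a lowest, median and highest level of 2.52, 3.64 and 4.28 CPM after CX5461 and 1.2, 1.46 and 2.45 CPM after the combination. All 6 combination mice lay below all 6 CX5461 mice, and Trib3 fell by 1.09 ± 0.20 (log2 fold change ± SE, n = 6, adjusted p = 0.0014, edgeR). Atf4 itself (chromosome 15, 80255184 to 80257541) had 101, 143 and 162 CPM after CX5461 and 80.5, 96.8 and 109 CPM after the combination, which overlap at the lowest CX5461 mouse, and it fell by 0.52 ± 0.12 (adjusted p = 0.00525). Both calls held without CX5461 mice 1, 4 and 5 and with the trend removed.

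Of 43 tested members of the ATF4 target list, 13 were lower and 1 higher, against 10.5% and 13.1% of all genes, with a median change of -0.16. With the trend removed, 15 were lower and 1 higher, and without CX5461 mice 1, 4 and 5, 3 were lower with a median of -0.14. Gpt2, the mitochondrial alanine transaminase, had 15.9, 21.7 and 26.2 CPM after CX5461 and 8.92, 13.3 and 17.3 CPM after the combination (-0.69 ± 0.15, adjusted p = 0.00277). Mthfd2, an enzyme of mitochondrial one-carbon metabolism, had 81.7, 112 and 141 CPM against 63.1, 73.0 and 90.0 CPM (-0.61 ± 0.11, adjusted p = 0.00153). Each of these pairs of groups overlapped in its extremes only, with the combination median below the lowest CX5461 mouse. The serine synthesis enzyme Psat1 fell by 0.43 ± 0.10 and Atf5, a transcription factor related to ATF4, by 0.53 ± 0.11. Sesn2, which signals amino acid and stress status to mTORC1, changed by -0.38 ± 0.14 with an adjusted p of 0.0462 that missed the threshold in 9 of 12 fits with 1 mouse left out. It passed with the trend removed (-0.57, adjusted p = 0.00594). Eif4ebp1, which encodes 4E-BP1, was at the edge of the threshold (-0.37 ± 0.14, adjusted p = 0.05). Its call held in 3 of 12 fits with 1 mouse left out and not with the trend removed (-0.24, adjusted p = 0.211). Without CX5461 mice 1, 4 and 5 its change was -0.11 (adjusted p = 0.712). Slc1a5, a glutamine transporter on the same list, rose by 0.33 ± 0.08 (adjusted p = 0.0072).

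Aminoacyl-tRNA synthetases charge tRNAs with amino acids. Of 22 tested, 9 were lower and 2 higher (median -0.19), and 6 lower and 2 higher with the trend removed. Nars, the asparaginyl-tRNA synthetase, fell from a median of 342 to 262 CPM (-0.33 ± 0.08, adjusted p = 0.00687). Farsb, a subunit of the phenylalanine enzyme, fell by 0.34 ± 0.09 (-0.17 and adjusted p = 0.0839 with the trend removed), Yars by 0.37 ± 0.10 and Iars by 0.29 ± 0.08. Vars, the valine enzyme, rose by 0.67 ± 0.14, from 431, 558 and 753 CPM to 705, 909 and 1130 CPM, so the groups overlapped between 705 and 753 CPM. Qars, the glutamine enzyme, rose by 0.18 ± 0.06 (adjusted p = 0.0326), a call that held in 7 of 12 fits with 1 mouse left out and in 4 of 7 other planned settings.

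The promoters of these genes are shown because a composite ATF4 and C/EBP sequence, TGATGNAA, marks many genes that ATF4 induces. The window from 250 bases before to 50 bases after the RefSeq gene start (GRCm38.p6) held TGATGNAA on either strand in 12 of 38 matched ATF4 list members (31.6%) and 5 of 14 matched synthetases (35.7%), against 286 of 9880 tested genes with a window (2.89%). Among the members called lower, 3 of 12 list members and 4 of 7 synthetases held it. Chac1, Slc1a4, Gars and Tars are outside the rule for named genes and are shown for this match alone. Each line gives 30 bases, 5′ to 3′ on the gene's strand, with the match in capitals (the reverse complement counts as a match).
Trib3, chr2:152344028-152344057, minus strand: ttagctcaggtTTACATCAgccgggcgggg
Chac1, chr2:119351038-119351067, plus strand: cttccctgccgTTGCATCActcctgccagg
Slc1a4, chr11:20332699-20332728, minus strand: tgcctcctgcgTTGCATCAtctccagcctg
Gars, chr6:55037960-55037989, plus strand: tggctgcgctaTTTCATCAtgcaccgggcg
Iars, chr13:49682126-49682155, plus strand: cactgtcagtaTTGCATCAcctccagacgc
Tars, chr15:11399655-11399684, minus strand: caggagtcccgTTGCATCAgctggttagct
Yars, chr4:129189895-129189924, plus strand: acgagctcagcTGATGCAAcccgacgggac
A match is a description of the sequence and not a measured binding site.

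**Figure D1:**
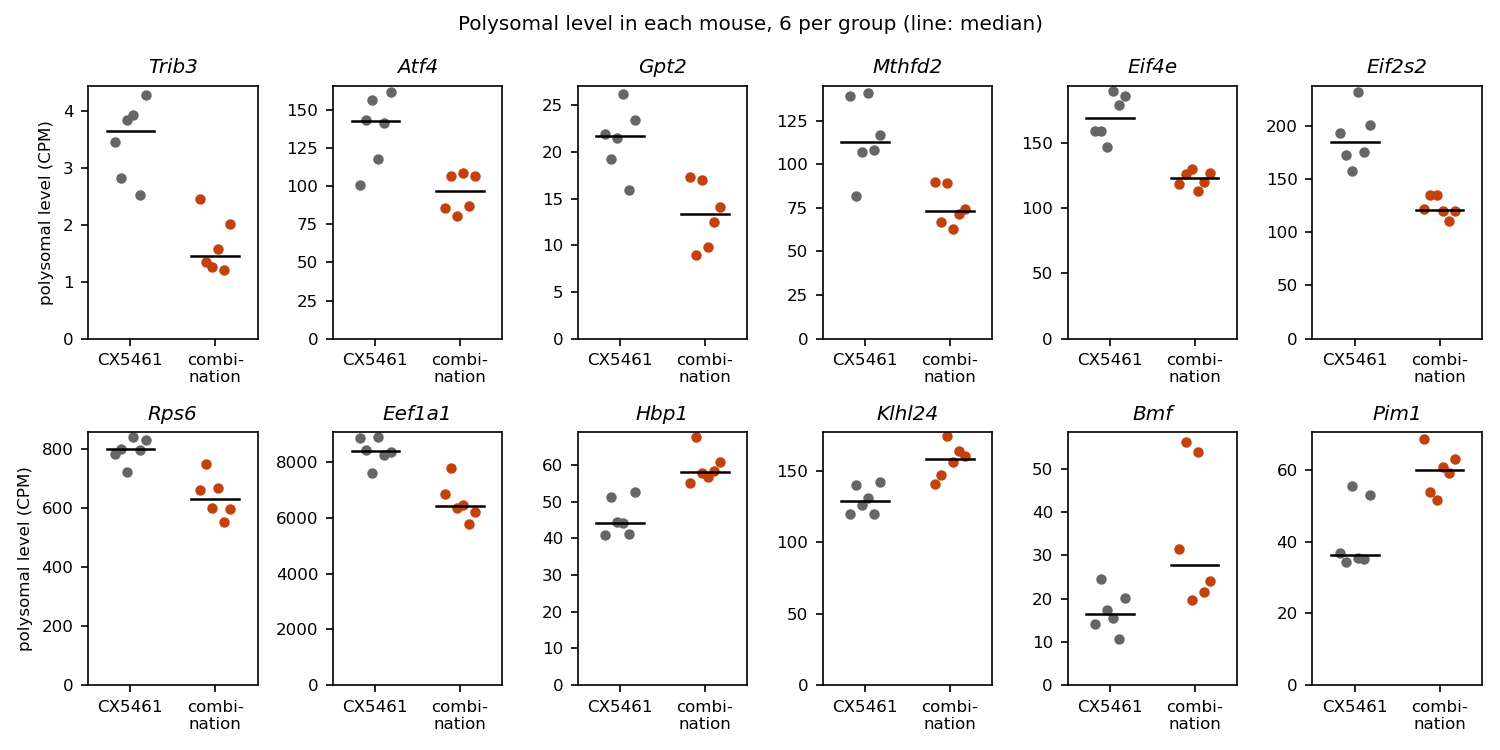
Polysomal level (CPM, linear axis from 0) of 12 genes in each of 6 CX5461 and 6 combination mice, with a line at the group median. Trib3 lay between 1.2 and 2.45 CPM after the combination, below every CX5461 mouse, while Hbp1 lay between 55.2 and 67.5 CPM, above every CX5461 mouse.

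Many messenger RNAs of the translation machinery were lower on polysomes, by small amounts. Of 79 cytosolic ribosomal protein genes, 43 were lower and 0 higher, against 10.5% of all genes lower, and the median change was -0.22, with 77 of 79 below 0. Their summed level was 46000 to 54500 CPM after CX5461 and 40200 to 50900 CPM after the combination, which overlap. In the trend-removed fit, 9 of 79 were lower and the median was -0.09. Without CX5461 mice 1, 4 and 5 none passed and the median was -0.16. These transcripts are short (median 914 bases), and transcript length moved with the comparison. The part of length in these changes was not tested beyond these values.

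Rps6, whose protein is the ribosomal substrate of S6 kinase (chromosome 4, 86854660 to 86857412, minus strand), had 720, 798 and 841 CPM after CX5461 and 551, 630 and 750 CPM after the combination (-0.32 ± 0.07, adjusted p = 0.00361). After removal of the trend, its change was -0.14 (adjusted p = 0.19). Rpl35 fell from 267, 295 and 334 CPM to 209, 230 and 261 CPM with no overlap (-0.36 ± 0.08), and Rpl14 by 0.38 ± 0.08. Both passed with the trend removed, at -0.31 and -0.25. Rps21 and Rpl17 fell by 0.39 ± 0.08 and 0.38 ± 0.08 and did not pass with the trend removed. Ribosomal protein genes have many processed copies in the genome, so part of their counts could belong to related loci.

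The 5′ ends are shown because mTORC1 acts on mRNAs that begin with a pyrimidine tract. A C followed by at least 5 pyrimidines, on the transcribed strand and within 10 bases of the RefSeq gene start, was found in 32 of 58 matched ribosomal protein genes (55.2%), 9 of 22 other TOP mRNAs (40.9%) and 2360 of 9880 tested genes with a window (23.9%). Among the ribosomal protein genes called lower it was found in 13 of 30 (43.3%), a smaller share than among all those matched. Among the other TOP mRNAs called lower it was found in 4 of 11 (36.4%), namely Eef1a1, Eif2s3x, Nap1l1 and Ran. Each line runs from 10 bases before to 20 bases from the gene start, with the tract in capitals.
Rps6, chr4:86857348-86857377, minus strand: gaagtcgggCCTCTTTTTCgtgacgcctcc
Rps21, chr2:180257369-180257398, plus strand: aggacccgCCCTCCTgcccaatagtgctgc
Rpl14, chr9:120571507-120571536, plus strand: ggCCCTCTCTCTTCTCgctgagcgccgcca
Rpl35, chr2:39005112-39005141, minus strand: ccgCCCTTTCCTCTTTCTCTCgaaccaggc
Eef1a1, chr9:78481705-78481734, minus strand: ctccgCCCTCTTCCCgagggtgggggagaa
A second annotated start of Rps21 (chr2:180257439-180257468, plus strand) held no such tract. Annotated starts can differ from each other and from those used in these cells. For Rps6 the gene span given above and the RefSeq start differ by more than the 10 bases searched. Whether a tract is found therefore depends on the start used.

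Of the other TOP mRNAs 15 of 32 were lower and 0 higher (median -0.20), and 7 lower and 2 higher with the trend removed. Eef1a1, the elongation factor that delivers aminoacyl-tRNA, had 7610, 8400 and 8910 CPM after CX5461 and 5790, 6420 and 7800 CPM after the combination (-0.35 ± 0.08, adjusted p = 0.00395). Naca, a subunit of the nascent polypeptide-associated complex, fell by 0.43 ± 0.08 and Ybx1, an mRNA-binding protein, by 0.39 ± 0.07, each with no overlap between groups. Npm1, a nucleolar chaperone of ribosome assembly, fell from 1520, 1740 and 2010 CPM to 1170, 1290 and 1390 CPM (-0.44 ± 0.09), and its change with the trend removed was -0.16 (adjusted p = 0.0582). Eef2, the translocation factor and also a TOP mRNA, did not pass (0.17 ± 0.09, adjusted p = 0.155).

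Among 38 translation initiation and elongation factors, 15 were lower and 2 higher (median -0.19), and with the trend removed 13 and 2. Eif4e, the cap-binding protein that 4E-BP1 restrains (chromosome 3, 138526179 to 138559696), had 147, 169 and 190 CPM after CX5461 and 113, 123 and 130 CPM after the combination. The groups did not overlap, and Eif4e fell by 0.47 ± 0.08 (adjusted p = 0.00118). Eif2s2, the beta subunit of eIF2, which brings the initiator tRNA, fell from 158, 185 and 232 CPM to 111, 121 and 135 CPM, again with no overlap (-0.61 ± 0.11, adjusted p = 0.00124). Eif1, a start codon selection factor, fell by 0.33 ± 0.06 and the synthetase complex scaffold Eef1e1 by 0.50 ± 0.10. The calls for Eif4e, Eif2s2 and Eef1e1 held with the trend removed, and that for Eif1 did not (adjusted p = 0.0508). Without CX5461 mice 1, 4 and 5 none of the 38 factors passed and the median was -0.12 (adjusted p = 0.0597, 0.0604 and 0.0841 for Eif4e, Eif2s2 and Eef1e1). Eif4g1 and Eif4g3, the scaffolds that bind eIF4E, were the members called higher (0.54 ± 0.14 and 0.55 ± 0.16), and neither passed with the trend removed (adjusted p = 0.0653 and 0.0936).

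A list of transcripts taken as induced by FoxO factors or repressed by AKT signalling was drawn up with earlier results of these data known. Its counts therefore describe the list and are not independent support. Of 35 tested members, 12 were higher after the combination (13.1% of all genes) and 1 lower, with a median of 0.20. Trend removal gave 11 higher and 1 lower, and without CX5461 mice 1, 4 and 5, 1 was higher and the median was 0.11. Fbxl20, an F-box protein, had 25.7, 28.2 and 29.6 CPM after CX5461 and 37.2, 45.0 and 49.3 CPM after the combination, with no overlap (0.64 ± 0.07, adjusted p = 9.47e-06). Hbp1, a transcriptional repressor of cell cycle genes (chromosome 12, 31926254 to 31950535, minus strand), had 40.9, 44.3 and 52.6 CPM against 55.2, 58.0 and 67.5 CPM (0.38 ± 0.07, adjusted p = 0.00132). Its groups did not overlap either. Its window at the RefSeq gene start was the only one among 9 matched members called higher with the forkhead sequence GTAAACA or its reverse complement. That sequence was present in 3.1% of tested genes with a window and in 6 of 28 matched list members. The match in Hbp1 lies before the RefSeq start but inside the gene span given above, so its place relative to the start depends on the annotation.
Hbp1, chr12:31950376-31950405, minus strand: caccttctccaGTAAACAcaagagaaaagt

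Bmf, a BH3-only protein that promotes apoptosis, had 10.6, 16.5 and 24.5 CPM after CX5461 and 19.8, 27.9 and 56.2 CPM after the combination, and it rose by 1.02 ± 0.24 (adjusted p = 0.00482). The groups overlapped between 19.8 and 24.5 CPM. Irs2, the insulin receptor adaptor, rose by 0.91 ± 0.21 and Crebrf, a regulator of CREB3, by 0.51 ± 0.11. Klhl24, a ubiquitin ligase adaptor, rose by 0.27 ± 0.08 (adjusted p = 0.0157) and did not pass with the trend removed (0.19, adjusted p = 0.0548). Ccng1, the member called lower, changed by -0.26 ± 0.09 and passed in 4 of 12 fits with 1 mouse left out, and not with the trend removed (adjusted p = 0.257). In the input, 7 of 35 members were higher and 0 lower (0.648% of all genes were higher there), with a median of 0.26.

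Genes of the mTORC1 pathway itself went both ways. Of 35 tested, 9 were higher and 5 lower, and 4 and 4 with the trend removed. Among all genes 13.1% were higher and 10.5% lower, and 7.38% and 5.66% with the trend removed. Rptor, the substrate-binding subunit of mTORC1, had 83.0, 92.2 and 106 CPM after CX5461 and 114, 125 and 134 CPM after the combination with no overlap (0.43 ± 0.08). Tsc1 and Tsc2, which inhibit the activating GTPase Rheb, rose by 0.36 ± 0.08 and 0.30 ± 0.07, and the autophagy kinase Ulk1 by 0.42 ± 0.08. None of these 4 passed with the trend removed (adjusted p = 0.149, 0.356, 0.869 and 0.127). Rheb fell by 0.27 ± 0.06 (adjusted p = 0.159 with the trend removed) and Grb10, an adaptor that restrains insulin receptor signalling, by 0.39 ± 0.11. Rps6kb1, the S6 kinase gene, changed by -0.23 ± 0.08 and passed in 4 of 12 fits with 1 mouse left out. In the lysosome and autophagy list 7 of 38 were higher and 2 lower. With the trend removed 2 and 2 passed, near the shares of all genes. Atg2a, a lipid transfer protein of autophagosomes, rose from 57.2, 68.9 and 86.7 CPM to 95.4, 110 and 120 CPM (0.65 ± 0.10, adjusted p = 0.000711).

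**Figure D2:**
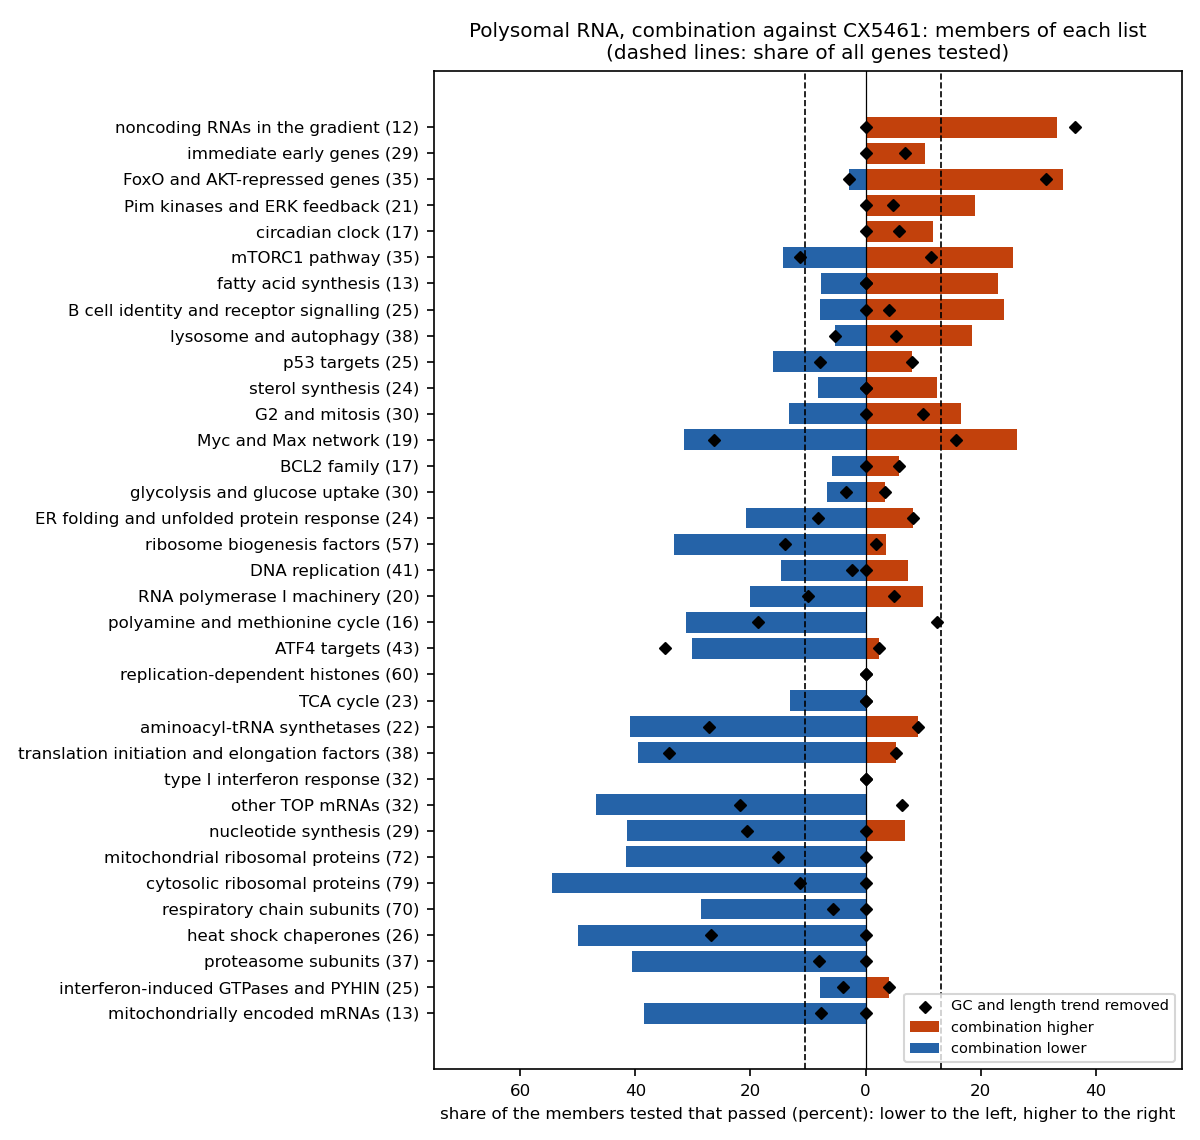
Share of the tested members of each list (number in brackets) that passed in polysomal RNA, higher after the combination to the right and lower to the left, with dashed lines at the shares of all genes (13.1% and 10.5%) and diamonds for the fit with the GC and length trend removed. Cytosolic ribosomal proteins (43 of 79 lower) moved to 9 of 79 with the trend removed. The counts of ATF4 targets (13 and 15 of 43 lower) and FoxO and AKT-repressed genes (12 and 11 of 35 higher) differed by 2 and 1. More members can differ than these net counts show, as Eif4ebp1 was called lower as counted but not with the trend removed.

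In nucleotide synthesis 12 of 29 were lower and 2 higher, against 10.5% and 13.1% of all genes. With the trend removed 6 and 0 passed, against 5.66% and 7.38%. Dut, the dUTP pyrophosphatase, fell from a median of 256 to 188 CPM (-0.37 ± 0.07, adjusted p = 0.002), Ppat, the entry enzyme of purine synthesis, by 0.30 ± 0.06, and Ctps, CTP synthase, by 0.28 ± 0.06. Pfas, a later purine enzyme, rose from 421, 480 and 521 CPM to 555, 618 and 675 CPM with no overlap (0.38 ± 0.08), and Cad, the entry enzyme of pyrimidine synthesis, by 0.32 ± 0.09. Once the trend was removed, Pfas did not pass (0.13, adjusted p = 0.166) and Cad was at -0.06 (adjusted p = 0.695). In the glycolysis list 1 of 30 was higher and 2 lower (1 and 1 with the trend removed). Hk2, hexokinase 2, had 103, 119 and 138 CPM after CX5461 and 98.5, 110 and 118 CPM after the combination and did not pass (-0.13 ± 0.07, adjusted p = 0.157), but it passed with the trend removed (-0.32, adjusted p = 0.00283).

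All calls among nuclear genes of the mitochondrial ribosome and respiratory chain were lower. Of 72 mitochondrial ribosomal protein genes 30 were lower and 0 higher (median -0.20), and of 70 respiratory chain subunits 20 were lower and 0 higher (median -0.22). Among all genes 10.5% were lower. With the trend removed 11 and 4 were lower, against 5.66% of all genes, and the respiratory chain count was near that share. Without CX5461 mice 1, 4 and 5 none passed in either list, with medians of -0.09 and -0.07. The respiratory chain transcripts are short (median 870 bases), and the part of length in these changes was not tested. Mrpl1 fell from 22.2, 24 and 29.5 CPM to 15.7, 17.0 and 19.7 CPM (-0.49 ± 0.09, adjusted p = 0.00124) and Mrpl12 by 0.33 ± 0.07, both without overlap and both called with the trend removed. Ndufb5, a complex I subunit, fell by 0.37 ± 0.09.

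The 13 mRNAs encoded by mitochondrial DNA, which are made and translated inside mitochondria, were all below 0 in polysomal RNA (median -0.39), and 5 were lower. The complex I subunit gene mt-Nd2 had 123, 158 and 184 CPM after CX5461 and 81.5, 97.9 and 122 CPM after the combination (-0.65 ± 0.14, adjusted p = 0.00324). In the input mt-Nd2 was at 0.02 (adjusted p = 0.894). After removal of the trend, the list median was -0.02 and mt-Nd2 was the only one of 13 called (-0.31, adjusted p = 0.0341). These mRNAs are poor in GC (median 37.1%).

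Chaperones fold proteins and the proteasome degrades them. Among 26 heat shock chaperones 13 were lower and 0 higher, and 7 lower with the trend removed. The shares of all genes called lower were 10.5% and 5.66%. Hspe1, the mitochondrial co-chaperonin, fell from 168, 198 and 210 CPM to 117, 134 and 159 CPM with no overlap (-0.51 ± 0.08, adjusted p = 0.000932), and its partner Hspd1 by 0.35 ± 0.07. Of 37 proteasome subunits 15 were lower and all 37 were below 0 (median -0.24), but 3 were lower with the trend removed, near the share of all genes. Psme3, an activator of the proteasome, fell by 0.29 ± 0.06 and Psmd11, a lid subunit, by 0.32 ± 0.08, and both passed with the trend removed.

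Ribosome biogenesis factors were lower in 19 of 57 tested and higher in 2 (8 and 1 with the trend removed). The shares of all genes were 10.5% lower and 13.1% higher (5.66% and 7.38% with the trend removed). Nop58, a core protein of box C/D ribonucleoproteins, fell from a median of 398 to 311 CPM, with the highest combination mouse at 345 and the lowest CX5461 mouse at 373 CPM (-0.33 ± 0.06, adjusted p = 0.00197). Noc3l, a factor of large subunit assembly, fell by 0.36 ± 0.06, likewise without overlap. Tcof1, the nucleolar treacle protein, rose by 0.71 ± 0.17. For RNA polymerase I, the target of CX-5461, 4 of 20 were lower and 2 higher (2 and 1 with the trend removed). Rrn3, its initiation factor, fell by 0.24 ± 0.07 (adjusted p = 0.0173, and 0.0711 with the trend removed). Polr1d, a subunit shared with RNA polymerase III, fell by 0.30 ± 0.07. Taf1c, a promoter selectivity factor, rose from 23.0, 26.8 and 30.0 CPM to 31.2, 36.6 and 38.9 CPM with no overlap (0.41 ± 0.09), and passed with the trend removed (adjusted p = 0.0464). Polr1b, the second largest subunit, did not pass (0.03 ± 0.06, adjusted p = 0.765).

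Myc, the transgene that drives these cells, did not pass: its level was 834, 967 and 1060 CPM after CX5461 and 855, 1020 and 1150 CPM after the combination (0.07 ± 0.07, adjusted p = 0.499), and reads of the transgene and the endogenous gene were not separated. Of 19 tested members of the Myc and Max list 5 were higher and 6 lower (3 and 5 with the trend removed). The higher ones were Mga, Mlxip, Mnt, Mxd3 and Mxd4. The lower ones were Max and Mlx with Ccnd2, Ncl, Nme1 and Npm1, which are on the list but do not pair with Max. Ncl and Npm1 are also counted among the other TOP mRNAs. Mnt, a Max partner that represses Myc targets, rose from 45.8, 52.9 and 54.2 CPM to 63.7, 79.4 and 85.5 CPM (0.58 ± 0.10, adjusted p = 0.00113). Mxd3, another repressive Max partner, rose by 0.42 ± 0.08 and Mga, which also pairs with Max, by 0.54 ± 0.15. Mlx, which pairs with the glucose-sensing Mondo factors, fell from 18.4, 20.9 and 23.8 CPM to 13.7, 15.5 and 17.0 CPM (-0.44 ± 0.09), and Ccnd2, cyclin D2, by 0.42 ± 0.12. Mnt, Mxd3, Mlx and Ccnd2 did not overlap between groups, and all 5 passed with the trend removed.

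Pim1, a kinase that promotes cell survival and translation, had 34.3, 36.2 and 55.5 CPM after CX5461 and 51.6, 60.1 and 68.8 CPM after the combination. In the CX5461 group 2 mice, at 53 and 55.5 CPM, lay within the combination range, and Pim1 rose by 0.52 ± 0.12 (adjusted p = 0.00429). In the list of Pim kinases and ERK feedback 4 of 21 were higher and 0 lower (1 higher with the trend removed). The shares of all genes called higher were 13.1% and 7.38%. Among immediate early genes 3 of 29 were higher, near the share of all genes (2 with the trend removed): Junb, an AP-1 subunit (0.46 ± 0.12), Btg2, an antiproliferative gene (0.25 ± 0.07), and Per1, a clock repressor (0.65 ± 0.17, adjusted p = 0.0631 with the trend removed). Mcl1, a survival protein of the BCL2 family, did not pass (-0.07 ± 0.08, adjusted p = 0.573), and 1 member of that list of 17 was higher, Bmf, and 1 lower (1 and 0 with the trend removed). In the B cell list 6 of 25 were higher and 2 lower (median 0.01), with Cd22, an inhibitory coreceptor of the B cell receptor, at 0.36 ± 0.07, and 1 was higher and 0 lower with the trend removed.

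Several of the largest rises were in long transcripts. Ahnak, a giant scaffold protein gene (chromosome 19, transcript of 18100 bases), had 322, 505 and 1000 CPM after CX5461 and 716, 1260 and 1790 CPM after the combination (1.16 ± 0.29, adjusted p = 0.00701). CX5461 mice 2 and 3, at 749 and 1000 CPM, lay within the combination range. Plec, a cytoskeletal linker, rose by 1.05 ± 0.26, Pcnt, a centrosome scaffold, by 1.05 ± 0.24, Kmt2d, a histone H3 lysine 4 methyltransferase, by 1.03 ± 0.23 and Syne2, a nuclear envelope linker, by 1.02 ± 0.29. Once the trend was removed, these changes were 0.74, 0.40, 0.65, 0.36 and 0.50, and Plec no longer passed (adjusted p = 0.053). Celsr2, an adhesion receptor, Sema4g, a semaphorin, and Bahcc1, a chromatin reader, rose by 1.04 ± 0.23, 1.11 ± 0.24 and 1.00 ± 0.17, and Bahcc1 did not overlap between groups.

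Noncoding RNAs were among the rises. Mir17hg, the host transcript of the miR-17-92 cluster, rose from 4.82, 6.91 and 8.58 CPM to 8.78, 14.4 and 23.8 CPM with no overlap (1.12 ± 0.31, adjusted p = 0.0117). Rmrp, the RNA of RNase MRP, which processes ribosomal RNA, rose by 1.08 ± 0.26, Rn7sk, which restrains the elongation kinase P-TEFb, by 0.77 ± 0.18, Rpph1, the RNA of RNase P, by 0.62 ± 0.18 and the nuclear Neat1 by 1.13 ± 0.29. Rmrp, Rn7sk, Rpph1 and Neat1 are 4 of 12 tested members of the noncoding list, with 0 lower, and the 4 passed with the trend removed too. Rmrp, Rn7sk and Rpph1 are not translated, and in the input they did not pass (adjusted p = 0.408, 0.297 and 0.447). Without CX5461 mice 1, 4 and 5 none of the 12 passed and the median was -0.05.

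The largest falls included Ccl7, a chemokine, from 2.82, 6.63 and 9.02 CPM to 1.64, 3.11 and 5.39 CPM (-0.95 ± 0.24, adjusted p = 0.0073, and 0.0991 with the trend removed). Kitl, the ligand of KIT, changed by -0.64 ± 0.22 and passed in 5 of 12 fits with 1 mouse left out. Dek, a chromatin protein, fell from 299, 404 and 450 CPM to 199, 262 and 273 CPM with no overlap (-0.64 ± 0.15, adjusted p = 0.00482), while its input change was 0.0043 (adjusted p = 0.986). Tbca, a tubulin folding cofactor, fell by 0.60 ± 0.12 (-0.21 and adjusted p = 0.0591 with the trend removed) and Ap1s2, a clathrin adaptor subunit, by 0.61 ± 0.15. Chordc1, a co-chaperone on the heat shock list, fell by 0.59 ± 0.13.

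Across 9892 protein-coding genes the change on polysomes rose with GC content and with length. In the quintile of genes with the highest GC content 611 were higher and 28 lower, and in the lowest quintile 74 were higher and 508 lower. By transcript length, 696 of the longest quintile were higher and 115 lower, and 35 of the shortest quintile were higher and 419 lower. The rank correlation across genes was 0.39 with GC content and 0.42 with length, and 0.06 and 0.05 once the trend was removed (genes are not independent replicates). In the input the same comparison gave -0.23 with GC content and 0.58 with length. Whether the trend belongs to the treatment or to the preparation of these libraries was not tested.

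**Figure D3:**
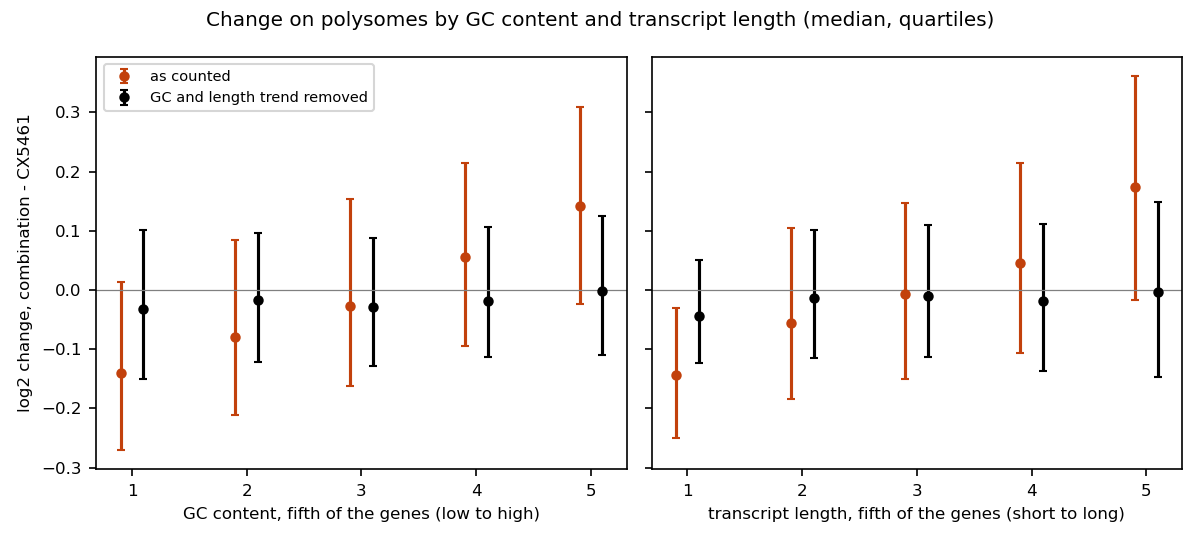
Median log2 change (combination minus CX5461, polysomal RNA) in quintiles of the genes by GC content and by transcript length, with bars from the lower to the upper quartile, as counted and with the trend removed. As counted, the median ran from -0.14 to 0.14 over GC content and from -0.14 to 0.17 over length, and with the trend removed it stayed between -0.04 and 0.00.

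In the input of the same mice 139 of 16055 genes passed (0.866%), 104 higher and 35 lower, and 491 of 15492 (3.17%) with the trend removed, 319 higher (2.06%) and 172 lower (1.11%). Without 3 input libraries rich in Gm26870 and Gm10800 (CX5461 mice 4 and 6 and everolimus mouse 2), 0 passed with edgeR (2454 at an unadjusted p below 0.05). Of the 2013 genes called higher on polysomes and tested in the input, and the 1609 called lower, 1809 and 1350 had the same sign in the input, where their medians were 0.22 and -0.12. These are the same mice, and over all genes 10773 of 15193 had the same sign in both fractions. Trib3 fell in the input by 1.47 (adjusted p = 0.0028), Atf4 by 0.44 (0.0266), and Fbxl20, Hbp1 and Klhl24 rose by 0.65, 0.49 and 0.50 (0.00672, 0.0231 and 0.0148). For the ATF4 targets 8 of 43 were lower in the input (0.218% of all genes were), with a median of -0.30. Ribosomal proteins had 0 of 79 called in the input and a median of -0.15. Replication-dependent histone genes had a median of -0.71 in the input and -0.16 on polysomes, and 0 of 60 passed in either. The input count ranged from 9 to 2339 when 1 mouse was left out, without CX5461 mouse 6 and without CX5461 mouse 3. Reads on Gm26870 and Gm10800 made up 23.3% and 15.0% of the input counts of CX5461 mice 4 and 6 and 1.39% to 7.57% in the other 10.

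Translational efficiency, the polysomal change beyond the input change, was tested as the fraction by treatment term with each mouse as a block. Of 16421 genes 549 passed (3.34%), 277 higher (1.69%) and 272 lower (1.66%). The change in efficiency had a rank correlation of 0.71 with GC content across genes, and 3 genes passed with the trend removed. The largest falls with a mean level above 2 log2 CPM were Snx10, a sorting nexin (-0.70, adjusted p = 0.0158), and the mitochondrial mt-Nd2 (-0.69, adjusted p = 0.0323), beside Jam3, mt-Nd4l and mt-Nd4. Among the rises were Rn7sk (0.93, adjusted p = 0.0393), Cd99 (0.80) and Celsr2 (0.72). Eif4e and Eif2s2 were lower in efficiency (-0.39 and -0.41, adjusted p = 0.0325 and 0.0393), Rps6 too (-0.25, adjusted p = 0.0431), while 3 of 79 ribosomal proteins and 0 of 43 ATF4 targets passed. The efficiency count with edgeR was 0 without CX5461 mouse 4, combination mouse 4 or combination mouse 6 (3092, 3758 and 3229 at an unadjusted p below 0.05), and 2702 without CX5461 mouse 3.

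**Figure D4:**
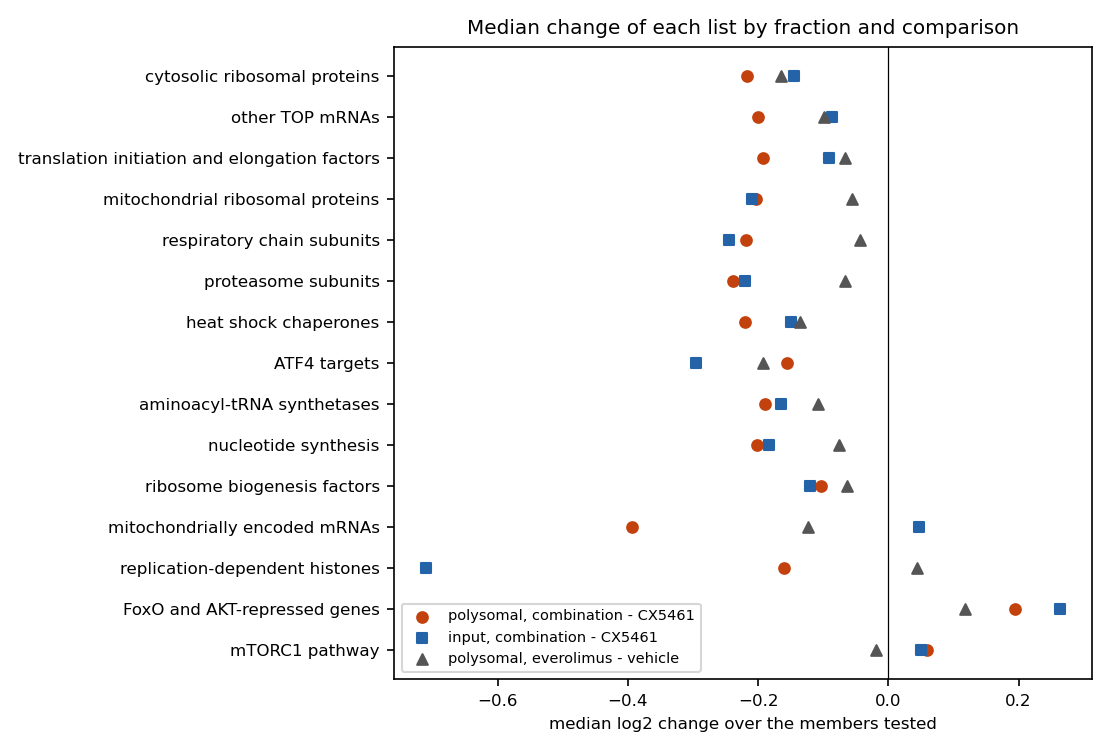
Median log2 change over the tested members of 15 lists in polysomal RNA and in the input (combination minus CX5461) and in polysomal RNA of the other mice (everolimus minus vehicle). Ribosomal proteins had medians of -0.22, -0.15 and -0.17, and FoxO and AKT-repressed genes 0.20, 0.26 and 0.12.

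Everolimus without CX5461, compared with vehicle in 12 other mice, gives the same drug step with no library in common. It changed 23 of 15374 genes on polysomes (0.15%), 7 higher (0.0455%) and 16 lower (0.104%). All 23 had the same sign in the combination against CX5461, and 14 passed in both. Trib3 changed by -1.49 with everolimus alone (adjusted p = 0.00081) and by -1.09 on top of CX5461, Atf4 by -0.71 and -0.52, and Atf5 by -0.54 and -0.53. Fbxl20 changed by 0.51 and 0.64, Hbp1 by 0.42 and 0.38, and Klhl24 by 0.45 and 0.27. Hk2 passed with everolimus alone (-0.42, adjusted p = 0.00391) but not on top of CX5461 (-0.13).

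Of the 2016 genes called higher in the combination against CX5461, 1603 (79.5%) were above 0 for everolimus against vehicle, and of the 1610 called lower, 1277 (79.3%) were below 0, against 49.0% and 51.0% of all genes. Their medians were 0.10 and -0.07 for everolimus alone and 0.41 and -0.31 on top of CX5461. These genes were selected by passing on top of CX5461, which by itself enlarges their medians there. The sizes of the 2 steps therefore cannot be compared from these medians. In the trend-removed fits of both steps, 979 of 1104 (88.7%) and 736 of 847 (86.9%) had the same sign. The share of all genes was not determined for these fits, so their percentages cannot be compared with those as counted. Both steps were fitted in 1 model, which shares its normalization and spread. The difference between the 2 steps, tested as an interaction, passed for 0 genes with edgeR (2508 at an unadjusted p below 0.05) and for 177 genes with DESeq2. The 5 genes with the lowest edgeR p in each direction were Osbpl5, Fgd3, Baz2a, Spata13 and Rhobtb2, and Tmco1, Slc25a24, Cetn3, Ndfip1 and A4galt, none of which passed.

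**Figure D5:**
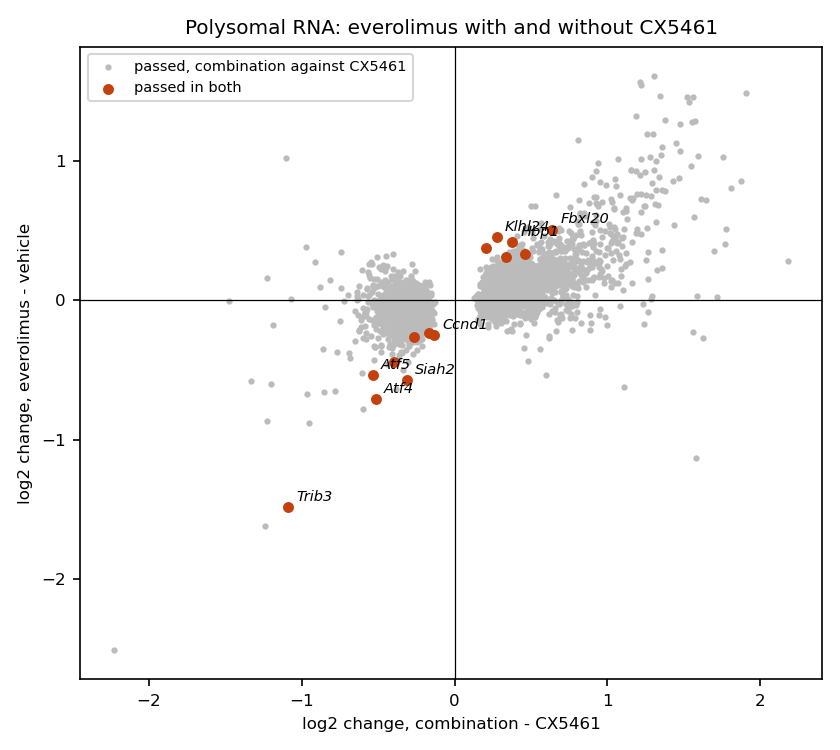
Log2 change of the 3626 genes called in the combination against CX5461 (x axis) beside their change for everolimus against vehicle (y axis), both in polysomal RNA, from mice with no library in common. The 14 genes that passed in both are coloured, and Trib3 lies at -1.09 and -1.49.

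Of the tested T cell, NK cell, stromal, erythroid and plasma cell markers none passed (0 of 24, 9, 18, 9 and 6). Of 19 myeloid markers Fcgr1, an IgG receptor, fell by 0.45 ± 0.11 and Lyz2, lysozyme, by 0.24 ± 0.08. Lyz2 passed in 4 of 12 fits with 1 mouse left out and was at -0.06 (adjusted p = 0.646) with the trend removed. In that fit 1 of 19 myeloid and 2 of 18 stromal markers were lower, and 2 stromal markers were also lower with DESeq2 and with RLE size factors. With the replicate block 1 stromal marker was lower and 1 erythroid marker higher, and 1 erythroid marker was higher without 4 libraries rich in Lars2 and Yam1. Erythroid and platelet markers together made up 827 to 13000 CPM after CX5461 and 793 to 6040 CPM after the combination, with a median change of -1.03. In bulk RNA fewer cells of a type cannot be told apart from less RNA per cell.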

How the data were processed

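The authors deposited raw counts per gene symbol, 1 column per mouse, for acute polysomal and input RNA. Per the labels' protocols, ribosomal RNA was removed before sequencing in single-end mode (50 bp), and per the submitters' processing notes TopHat2, HTSeq and GRCm38 were used. Versions, annotation and strand handling are not given in the sources used here.

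All 24 acute polysomal libraries were fitted in 1 model with edgeR 4.0.16 in R 4.3.3 (TMM, filterByExpr, quasi-likelihood test, Benjamini-Hochberg adjustment over all genes tested, threshold 0.05). Levels are TMM-scaled CPM, and the SE is the log2 fold change divided by the square root of F. The input was fitted likewise, and efficiency used 48 libraries. DESeq2 1.42.0 was an alternative. The trend fit, added after seeing the data, took natural splines with 5 degrees of freedom on GC content and on log length of GENCODE M21 transcripts, fitted over genes whose mean reached 2 log2 CPM, out of each library as an offset. The fits were tested on simulated data.

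Named genes passed the threshold, reached the same mean level and had all 6 combination mice on the same side of the CX5461 mean: the 12 largest changes each way, up to 4 per list and direction by adjusted p, and 5 each way for efficiency and the interaction, with 15 genes named whatever their result. Members and lists were chosen with earlier results of these data known, so counts of a list beside all genes are not independent support. The labels number the mice within each group, and p-values measure the spread between mice that carry 1 clone.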

Additional observations from a re-analysis of the deposited data

Results flagged for a closer look

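In 14 of 250 groups of 6 values examined (levels of 120 genes named in the text and 5 library measures), 1 mouse stood apart from the other 5 by a gap above Dixon's 95% limit. Chance flags about 1 in 20 such groups. CX5461 mouse 3 was the highest of its group for Celsr2 (7.04 CPM, the next mouse 4.46), Syne2 (32.1 CPM, next 19.9), Eif4g3 (173 CPM, next 117), Tcof1 (371 CPM, against 197 CPM in the lowest mouse), Junb (108 CPM, next 83.1), Eif2ak3 (51.3 CPM, next 41.7) and Cd22 (143 CPM, next 121). All 7 genes were called higher after the combination. The same mouse had the highest correlation with transcript length of the CX5461 group (0.25).

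CX5461 mouse 2 was the highest of its group for Rmrp (1500 CPM, next 847), Rpph1 (5000 CPM, next 3150) and A4galt (6.15 CPM, next 4.63), and CX5461 mouse 4 for Mrpl1 (29.5 CPM, next 24.2). In the combination group, mouse 3 was the highest for Eif1 (169 CPM, next 156), mouse 2 for Nop58 (345 CPM, next 315) and mouse 5 for Slc25a24 (5.22 CPM, next 4.46).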

How the results depend on the processing

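The polysomal count of 3626 genes stayed within 1.5 times under DESeq2, RLE size factors, no filter, the compared groups alone and both left-out sets of libraries named beforehand. It was 1951 with the GC and length trend removed and 53 without CX5461 mice 1, 4 and 5, and 2243 to 4133 with 1 mouse left out. The input count of 139 was 1247 with DESeq2, 79 with no filter, 7 with the compared groups alone, 1240 without vehicle mouse 6 and combination mouse 3, 491 with the trend removed, 0 without 3 input libraries rich in Gm26870 and Gm10800 (CX5461 mice 4 and 6, everolimus mouse 2) and 1 without CX5461 mice 1, 4 and 5, and it ranged from 9 to 2339 with 1 mouse left out. The efficiency count of 549 was 1494 with no filter, 75 with the compared groups alone, 1 without 4 libraries rich in Lars2 and Yam1, 1041 without vehicle mouse 6 and combination mouse 3, 3 with the trend removed and 0 (2836 at an unadjusted p below 0.05, edgeR) without CX5461 mice 1, 4 and 5, and it ranged from 0 to 2702 with 1 mouse left out. The everolimus count of 23 was 94 with DESeq2, 12 with no filter, 10 with the compared groups alone, 4 without that set of 4 libraries, 44 without vehicle mouse 6 and combination mouse 3, 92 with the trend removed and 12 without CX5461 mice 1, 4 and 5. The interaction count of 0 was 177 with DESeq2. Removing the trend and leaving out CX5461 mice 1, 4 and 5 or the 3 input libraries were chosen after seeing the data. The cause of these shifts was not tested, beyond the fewer samples in fits that leave libraries out.

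Replicate numbers did not pair mice: deviations of same-numbered combination and CX5461 libraries correlated between -0.25 and 0.35. With the replicate number as a block 3379 polysomal, 105 input, 19 everolimus and 0 interaction genes passed, and efficiency without the mouse block gave 0 (2122 unadjusted). With the trend removed the sign turned for Cad (-0.0561), mt-Nd4l (0.0472), Polr1b (-0.0571) and Spata13 (-0.0254). DESeq2 for efficiency, the compared groups alone for the interaction and the Lars2 and Yam1 set for the input were not run.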

Other observations

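Gene families outside the lists were picked after their values were seen, so they get no test. Among all genes 13.1% were higher and 10.5% lower, and 7.38% and 5.66% with the GC and length trend removed. All 6 Ywha genes, which encode 14-3-3 proteins that hold phosphorylated partners, were lower on polysomes (median -0.38, and 5 of 6 with the GC and length trend removed), while 0 of 6 passed in the input (median -0.08). Of 33 Ube2 genes, which encode ubiquitin-conjugating enzymes, 13 were lower and 0 higher (11 lower with the trend removed). Of 58 Rab genes of vesicle traffic, 13 were lower and 2 higher (10 and 2 with the trend removed). Zfp zinc finger genes were higher in 76 of 307 and lower in 6 (61 and 1 with the trend removed), with a median of 0.18 in the input. Zbtb genes, also zinc finger factors, were higher in 16 of 39 and Kdm histone demethylases in 11 of 17, with 0 lower in each. With the trend removed the Zbtb count was 9 higher and 1 lower, and the Kdm count 8 higher and 0 lower. Of the other families examined, Kmt2 genes were higher in 4 of 5 and Snora and Snord genes in 5 of 29, with 0 lower in each. With the trend removed these counts were 3 and 4 higher. Immunoglobulin V segments (Igkv and Ighv) were higher in 4 of 90 and lower in 2 (10 and 0 with the trend removed).

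The remaining lists are given by their counts, beside 13.1% higher and 10.5% lower among all genes. In the list of ER folding 5 of 24 were lower and 2 higher (2 and 2 with the trend removed), and Eif2ak3, the kinase PERK, rose by 0.41 while the chaperone Pdia3 fell by 0.36. Polyamine and methionine cycle genes were lower in 5 of 16 and higher in 0 (3 and 2 with the trend removed, median -0.15 as counted), among them Mtap, the methionine salvage phosphorylase (-0.40). In the list of G2 and mitosis 5 of 30 were higher and 4 lower (3 and 0 with the trend removed), with the kinetochore gene Cenpf at 0.66. DNA replication had 3 higher and 6 lower of 41 (0 and 1 with the trend removed), with Orc6, an origin recognition subunit, at -0.36 (adjusted p = 0.112 with the trend removed). Sterol synthesis had 3 higher and 2 lower of 24, fatty acid synthesis 3 and 1 of 13, the TCA cycle 0 and 3 of 23, the pentose phosphate pathway 0 and 1 of 7, p53 targets 2 and 4 of 25 (2 and 2 with the trend removed) and the circadian clock 2 and 0 of 17 (1 and 0). Type I interferon response genes had 0 of 32 called, and interferon-induced GTPases 1 higher and 2 lower of 25. With the trend removed, 0 sterol, fatty acid, TCA cycle and pentose phosphate genes passed.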
